A study of Mus musculus with 12 samples.

Results

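The interaction of Phlpp1 and Phlpp2 losses was measured as a difference of differences, per gene and on the log2 scale: the Phlpp1/2 knockout minus the Phlpp1 knockout, less the Phlpp2 knockout minus wild type (WT). All 12 libraries of the series entered it, with 3 in each of the 4 genotypes, and 16565 of the 49315 genes in the table of counts passed a filter on low counts and were tested. A value of 0 means that both single losses add up to the double loss. A value above 0 means that the level in the Phlpp1/2 knockout was higher than that sum, and a value below 0 that it was lower.

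The cells were primary chondrocytes from the epiphyses of mice labelled female, aged 5 days. They had been freed from the tissue with collagenase, stored frozen, and kept in serum-containing culture for a night after thawing. The genotypes were WT, Phlpp1-/-, Phlpp2-/- and Phlpp1/2-/-, written below as Phlpp1 KO, Phlpp2 KO and Phlpp1/2 KO. How the alleles were made is not given in the sources used here, and neither is whether each sample came from 1 animal or several. P-values therefore measure the spread between these samples, which may be technical. The strain label was C57BL6 in WT, Phlpp1 KO and the first 2 samples of Phlpp2 KO. It read C57BL7 in the third Phlpp2 KO sample and C57BL8, C57BL9 and C57BL10 in the Phlpp1/2 KO samples.

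PHLPP1 and PHLPP2 are related phosphatases with PH and leucine-rich repeat domains that remove phosphate from a regulatory serine of AKT and from other AGC kinases, among them PKC and S6 kinase. Because they share substrates, one can stand in for the other where both are present, and a second loss then has effects that the first did not. Chondrocytes of the epiphysis make the collagen and aggrecan matrix of cartilage, divide, enlarge and are replaced by bone.

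Library totals ran from 21706337 to 33115345 counts, and Pearson correlations of log2 CPM across genes were 0.990 to 0.994 within genotypes and 0.986 to 0.993 between them. The cells had the defining transcripts of chondrocytes, with group means of 27498 to 32927 CPM for Col2a1 (CPM being read counts scaled to the size of the library), 3458 to 4325 for Acan and 309.7 to 381.5 for Sox9. Xist, the RNA of the inactive X chromosome, was at 278 to 587 CPM in 10 libraries, at 13.9 in Phlpp1 KO 1 and at 3.77 in Phlpp1/2 KO 1. Genes of the Y chromosome summed to 109 CPM in Phlpp1/2 KO 1 and to at most 1.23 in the other libraries. These values go against the label of Phlpp1/2 KO 1 as female, and some results are given without both of these libraries.

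The targeted genes were counted in every library. Phlpp1 was at 43.8, 35.1 and 40.0 CPM in WT and 44.6, 37.9 and 41.6 in Phlpp2 KO, and at 9.25, 9.46 and 8.77 in Phlpp1 KO and 8.12, 7.71 and 8.83 in Phlpp1/2 KO. Phlpp1 fell by 2.11 on the log2 scale without Phlpp2 loss and fell by 2.33 with it, and the interaction of -0.22 (95% interval -0.51 to 0.07, adjusted p = 0.492) did not pass the test. Phlpp2 was at 28.1, 22.4 and 25.8 CPM in WT, 24.9, 22.8 and 24.9 in Phlpp1 KO, 17.1, 16.8 and 19.4 in Phlpp2 KO, and 11.1, 10.2 and 11.4 in Phlpp1/2 KO. The 4 levels of Phlpp2 thus fell into 3 steps without overlap, with WT and Phlpp1 KO together on the first. The log2 difference for the Phlpp2 genotype was -0.52 with Phlpp1 present and -1.15 in its absence, an interaction of -0.63 (SE 0.13, 95% interval -0.92 to -0.34), with an adjusted p of 0.151. Against Phlpp2 KO the level in Phlpp1/2 KO fell by 0.70 (adjusted p = 0.0185). The interaction of Phlpp2 was -0.68 with an adjusted p of 0.0133 when Phlpp1/2 KO 3 was left out, and had an adjusted p of 0.0745 with the GC trend removed as well. RNA of both targeted genes was still counted in the knockouts, and which exons the alleles remove is not given in the sources used here.

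Of the 16565 genes tested, 8 (0.0483%) had an interaction at an adjusted p under 0.05 in edgeR's quasi-likelihood test, 5 above the sum of the single losses (0.0302%) and 3 below it (0.0181%). At an unadjusted p under 0.05 there were 2410 genes (14.5%), 742 above (4.48%) and 1668 below (10.1%). The median interaction of all tested genes was 0.04 and the median SE 0.18, against a median SE of 0.13 for each comparison of a pair of genotypes. None of the 8 was a protein-coding gene of the nuclear genome: 7 were pseudogenes and the eighth was mt-Nd3, which encodes a subunit of respiratory complex I in mitochondrial DNA. With protein-coding nuclear genes alone, edgeR called 0 of 13592, with 2159 at an unadjusted p under 0.05. With the counts of near-identical copies summed it called 0 of 15310, with 2268 at an unadjusted p under 0.05.

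In each of the 8 genes the 3 mutant genotypes were closer to each other than to WT. WT stood apart in all 8, meaning that it was the genotype farthest from the mean of the others. WT held that place in 32.6% of all tested genes. Among genes with an interaction at an unadjusted p under 0.05 it did so in 39.5% of the 742 above the sum and 55.2% of the 1668 below. Each of the 8 also has a near-identical copy elsewhere in the genome, and the share of all tested genes with such a copy is not given here. To show how close the copies are, a stretch of each of 2 pairs follows, taken from GENCODE vM21 transcripts (mm10) and written 5′ to 3′ along the transcript, with the bases at which the pair differs in capitals. The first pair is mt-Nd3 (chrM:9459-9558, plus strand) and the pseudogene Gm28438 (chr1:24613020-24613119, minus strand), which have 1 mismatch in 345 aligned bases, T3C counted from the first base of the copy. The second pair is Rnps1, an RNA-binding protein of the exon junction complex (chr17:24420206-24420325, plus strand, in 1 exon), and its processed pseudogene Gm9825 (chr6:7983109-7983228, minus strand), with 5 mismatches in 843 bases. Of these, C171A and C260T lie in the stretch shown, and T489C, T510C and C684T outside it.
mt-Nd3: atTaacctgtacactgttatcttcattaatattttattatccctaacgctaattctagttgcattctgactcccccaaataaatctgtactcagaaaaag
Gm28438: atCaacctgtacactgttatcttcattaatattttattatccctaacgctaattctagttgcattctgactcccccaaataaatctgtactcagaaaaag
Rnps1: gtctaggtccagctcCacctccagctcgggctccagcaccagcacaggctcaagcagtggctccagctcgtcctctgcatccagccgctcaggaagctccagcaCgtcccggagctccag
Gm9825: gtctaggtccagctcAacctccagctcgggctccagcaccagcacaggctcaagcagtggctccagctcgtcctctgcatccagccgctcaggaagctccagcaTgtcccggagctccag

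The mitochondrial pair moved in opposite directions. mt-Nd3 was at 18.6, 21.3 and 19.2 CPM in WT, at 1.18, 1.94 and 1.57 in Phlpp1 KO, at 1.48, 1.99 and 1.42 in Phlpp2 KO and at 1.997, 2.203 and 1.74 in Phlpp1/2 KO. Its interaction was 3.93 (SE 0.26, adjusted p = 5.4e-06), since each single loss and the double loss gave the same low level. Gm28438 was at 2.44, 3.42 and 2.18 CPM in WT and between 13.1 and 26.1 in the 9 mutant libraries, with an interaction of -2.78 (SE 0.28, adjusted p = 0.00161). The sum of both was 22.4 ± 1.99 CPM in WT, 16.9 ± 2.60 in Phlpp1 KO, 22.8 ± 4.73 in Phlpp2 KO and 19.4 ± 2.43 in Phlpp1/2 KO (SD, n = 3), and its interaction was 0.16 (SE 0.21, adjusted p = 0.785).

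A pair of further pseudogenes of chromosome 1 lie beside Gm28438, in a run of mitochondrial sequence in the nuclear genome. Gm10222 (chr1:24612407-24612700), identical to mt-Nd4l over 294 bases, had 1.13 ± 0.0521 CPM in WT and 3.69 ± 0.626, 4.06 ± 0.237 and 3.98 ± 0.263 in Phlpp1 KO, Phlpp2 KO and Phlpp1/2 KO (SD, n = 3). Its interaction was -1.73 (SE 0.22, adjusted p = 0.00763). mt-Nd4l itself, another subunit of complex I, was at 3.93 to 4.66 CPM in WT and at 1.53 to 2.93 in the mutant libraries, with an interaction of 0.54 (SE 0.27, adjusted p = 0.398). Gm28437, identical to mt-Co3 over 783 bases, was at 6.52 to 8.11 CPM in WT and at 11.6 to 15.5 in the others, and its interaction was -0.93 (SE 0.14, adjusted p = 0.0465). mt-Co3, a subunit of cytochrome c oxidase, was at 10.7 to 12.6 CPM in WT and at 6.50 to 9.18 in the others (interaction 0.64, SE 0.16, adjusted p = 0.151). In all 3 pairs WT overlapped with no mutant library, and the gene and its copy lay on opposite sides.

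The other 4 called genes are processed copies of neighbours on chromosome 17. Rps2-ps10, a copy of Rps2 with 99.46% identity over 926 bases, was at 504, 609 and 518 CPM in WT and at 14.8 to 21.7 in the 9 mutant libraries. Its interaction of 4.91 (SE 0.20, adjusted p = 1.8e-07) was the largest among the called genes. Rps2, which encodes a protein of the small ribosomal subunit, was lower in WT (1670 ± 133 CPM) than in Phlpp1 KO (2678 ± 159), Phlpp2 KO (2701 ± 151) and Phlpp1/2 KO (2869 ± 183; SD, n = 3), and its interaction was -0.59 (SE 0.11, adjusted p = 0.130; called at -0.72 with the GC trend removed, adjusted p = 0.0123). Summed with all its near-identical copies, 31 genes in all, Rps2 had an interaction of -0.20 (SE 0.11, adjusted p = 0.425).

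The smaller copies of Rps2 followed Rps2-ps10. Gm6139 was at 2.40 to 3.25 CPM in WT and 0.470 to 1.16 in the mutants (interaction 2.57, SE 0.36, adjusted p = 0.0210), and Rps2-ps13 at 5.85 to 7.28 and 3.15 to 4.65 (interaction 1.23, SE 0.19, adjusted p = 0.0465). Gm9825, the copy of Rnps1, was at 16.7, 16.2 and 15.8 CPM in WT and at 1.79 to 2.69 in the mutants (interaction 3.13, SE 0.20, adjusted p = 5.4e-06). Rnps1 was at 110 to 112 CPM in WT and at 139 to 159 in the mutants, with an interaction of -0.42 (SE 0.07, adjusted p = 0.0640; called at -0.50 with the GC trend removed, adjusted p = 0.0140). Summed with Gm9825, it was at 127 ± 1.05 CPM in WT, 154 ± 6.20 in Phlpp1 KO, 146 ± 3.68 in Phlpp2 KO and 149.6 ± 1.34 in Phlpp1/2 KO (SD, n = 3), with an interaction of -0.25 (SE 0.07, adjusted p = 0.150). Rps2-ps10, Gm9825, mt-Nd3, Gm28438 and Gm10222 were called in all 12 fits that left out 1 library, and the other 3 in 2 to 5 of them. Without both libraries of low Xist, Rps2-ps10, Gm9825, mt-Nd3 and Gm28438 were called (4 genes).

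**Figure D1:**
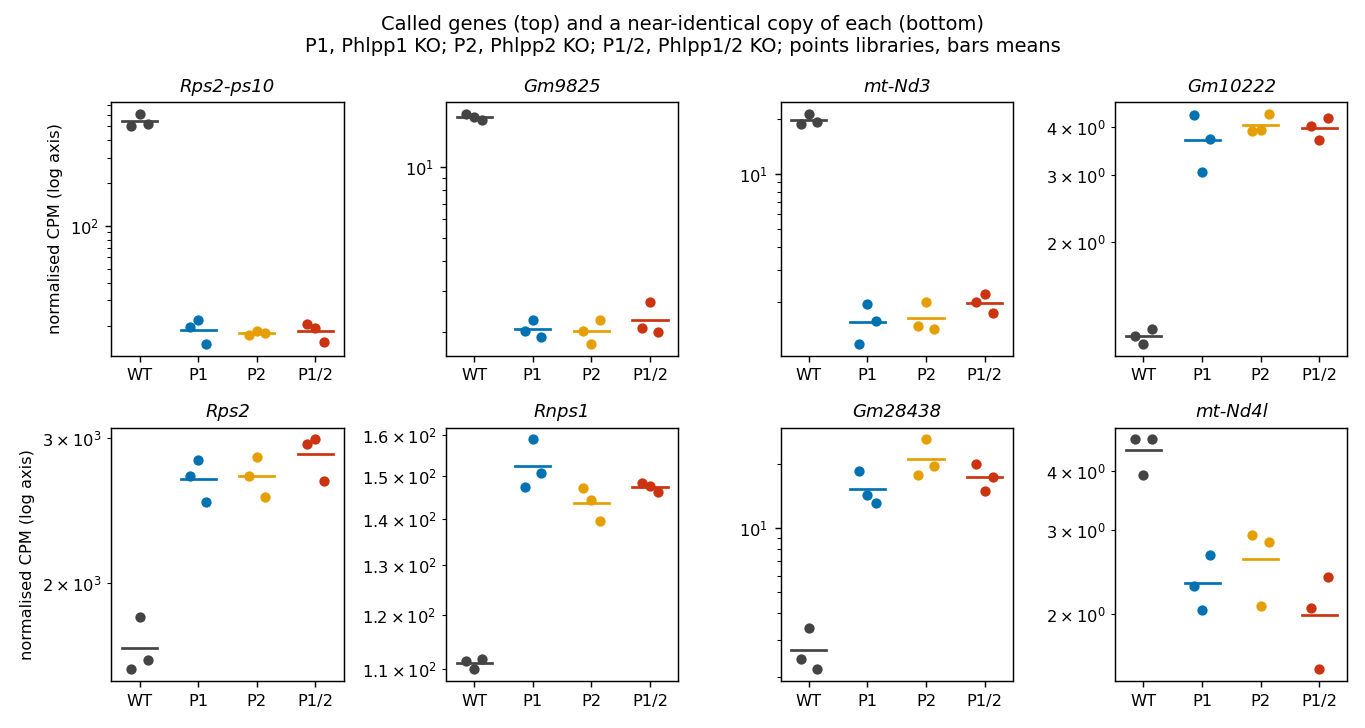
Level of 4 called genes (top row) and of a near-identical copy of each (bottom row) in normalised CPM on a log axis, by genotype, with 1 point for each library and a bar for the mean of 3. The 3 WT libraries lie apart from all 9 mutant libraries in every panel, as for mt-Nd3, at 18.6 to 21.3 CPM in WT and 1.18 to 2.203 in the others, and each copy lies on the other side.

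Near the targeted genes a smaller share of genes had an interaction than elsewhere, a difference that was not tested. Within 20 Mb of Phlpp1, 15 of 146 tested genes had an unadjusted p under 0.05 (10.3%), within 20 Mb of Phlpp2 36 of 345 (10.4%), and elsewhere 2359 of 16074 (14.7%), with 0 genes called by edgeR near either. Ciapin1, which takes part in cytosolic iron-sulphur protein assembly and lies in the window of Phlpp2, was at 62.6 to 71.99 CPM in WT, 65.9 to 74.4 in Phlpp1 KO, 80.8 to 87.2 in Phlpp2 KO and 105 to 122 in Phlpp1/2 KO. Its level in Phlpp1/2 KO was higher than both single losses add up to, with an interaction of 0.38 (SE 0.10, adjusted p = 0.151; 0.42 with an adjusted p of 0.0211 without Phlpp1/2 KO 3, and an adjusted p of 0.141 with the GC trend removed as well). Usb1, an exonuclease that trims U6 RNA, lies in the same window and was at 26.3 to 30.6 CPM in WT and both single knockouts and at 34.3 to 37.7 in Phlpp1/2 KO (interaction 0.39, SE 0.09, adjusted p = 0.151).

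A simple question behind the interaction is whether the effect of Phlpp1 loss is the same with Phlpp2 present (Phlpp1 KO against WT) and absent (Phlpp1/2 KO against Phlpp2 KO). These comparisons share no library. The first called 89 genes (0.537%) and the second 12 (0.0724%). Of the 89, 65 had the same sign in the second (73.0%; 50.7% of all tested genes did), but their median size, taken along the sign of the first, went from 0.63 to 0.11. Selection for a large effect in the first comparison raises the first of these medians, so the gap between them is a description. The 9 of the 89 within 20 Mb of a Phlpp gene all had the same sign, with medians of 1.095 and 0.95. Glrp1 and 2310022B05Rik, named after their values were seen, had the smaller effect where Phlpp2 was missing, at -6.47 and -2.41 and at -0.29 and -0.04. The 60 that lay elsewhere and had no near-identical copy had the same sign in 49 (81.7%), with medians of 0.58 and 0.15. Without Phlpp1/2 KO 3 the first comparison called 647 genes and 27.4% had the same sign, and without Phlpp2 KO 2 it called 196, with 46.9%. Without Phlpp1/2 KO 3 and with each library's trend on transcript GC content removed, it called 94, with 74.5%. The 12 genes called in the second comparison all had the same sign in the first, with medians of 0.75 and 0.34. Of these, 9 lay within 20 Mb of a Phlpp gene, with medians of 0.70 and 0.31. The 3 elsewhere had medians of 0.80 and 0.36.

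Genes on the diagonal of that comparison differed with the Phlpp1 genotype to a like extent on both backgrounds. Mlph, an adaptor that ties melanosomes to myosin and lies in the window of Phlpp1, was at 11.5 to 15.1 CPM in WT and 11.8 to 16.7 in Phlpp2 KO, and at 26.8 to 28.6 in Phlpp1 KO and 24.2 to 29.1 in Phlpp1/2 KO. It rose by 1.08 and 0.92 on the log2 scale, and its interaction was -0.16 (95% interval -0.56 to 0.23). D2hgdh, which oxidises D-2-hydroxyglutarate and shares sequence with pseudogenes, also lies in the window of Phlpp1. It fell by 1.095 and fell by 0.953 (interaction 0.14, 95% interval -0.19 to 0.47). Tnc, the matrix protein tenascin C, was at 342 to 429 CPM in WT and 533 to 574 in Phlpp1 KO, and its differences were 0.56 (called) and 0.42 (not called), with an interaction of -0.14 (95% interval -0.40 to 0.11).

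Other genes called for Phlpp1 loss differed less, or not measurably, where Phlpp2 was also missing. Mcub, the inhibitory subunit of the mitochondrial calcium uniporter, was at 15.3, 22.6 and 20.2 CPM in WT and 7.71, 9.23 and 9.79 in Phlpp1 KO, but at 21.7 and 13.4 in the first and last library of Phlpp2 KO, with the other one just above both, and at 17.5, 16.0 and 19.6 in Phlpp1/2 KO. Its Phlpp1 KO libraries lay below all 9 others. The effect of Phlpp1 loss was -1.13 alone and -0.11 on top of Phlpp2 loss, an interaction of 1.02 (SE 0.27, adjusted p = 0.151). Dhrs7, a short-chain dehydrogenase, was also lowest in Phlpp1 KO, at 32.5 to 42.5 CPM in WT, 19.0 to 21.0 in Phlpp1 KO, 34.5 to 41.7 in Phlpp2 KO and 28.2 to 30.3 in Phlpp1/2 KO, with effects of -0.95 and -0.42 and an interaction of 0.52 (SE 0.14, adjusted p = 0.151). Nfatc4, a calcium-regulated transcription factor, was at 2.76 to 3.45 CPM in Phlpp1 KO and 4.19 to 5.48 in the other 9 libraries (interaction 0.67, SE 0.17, adjusted p = 0.151). Igfbp3, which binds insulin-like growth factors, was at 23.8 to 26.3 CPM in Phlpp1 KO and 14.9 to 21.6 elsewhere (interaction -0.48, SE 0.15, adjusted p = 0.174). Each of these stood below the test's threshold for the interaction over all genes.

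Wdfy1, an endosomal adaptor of Toll-like receptors whose transcript aligns to that of Syt11 over 166 bases, went the other way, with a larger effect of Phlpp1 loss when Phlpp2 was missing. It was at 15.8, 15.6 and 21.5 CPM in WT, 8.04, 9.30 and 9.24 in Phlpp1 KO, 28.3, 24.6 and 24.2 in Phlpp2 KO, and 8.47, 7.77 and 8.62 in Phlpp1/2 KO. Phlpp2 KO was thus highest and both genotypes without Phlpp1 were alike. With Phlpp1 loss it fell by 0.99 on the log2 scale in one comparison and fell by 1.63 in the other, both called, and the interaction was -0.64 (SE 0.18, adjusted p = 0.151; -0.69 with an adjusted p of 0.0487 without Phlpp1/2 KO 3, and an adjusted p of 0.221 with the GC trend removed as well).

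**Figure D2:**
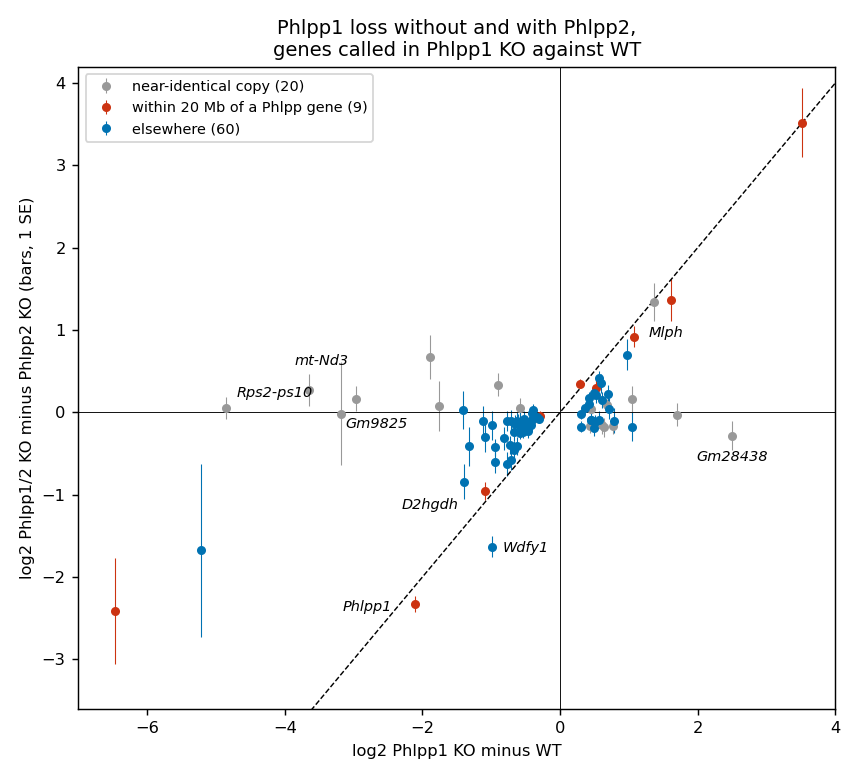
Effect of Phlpp1 loss in log2 units with Phlpp2 present (horizontal axis) and absent (vertical axis, with 1 SE) for the 89 genes called in Phlpp1 KO against WT, coloured by place; the dashed line marks equal effects. Most points near a Phlpp gene lie close to the line, with Glrp1 (-6.47 and -2.41) and 2310022B05Rik (-0.29 and -0.04) off it, the 60 others without a copy have a vertical median of 0.15 along their sign, and copies such as Rps2-ps10 lie near 0 on the vertical axis.

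**Figure D3:**
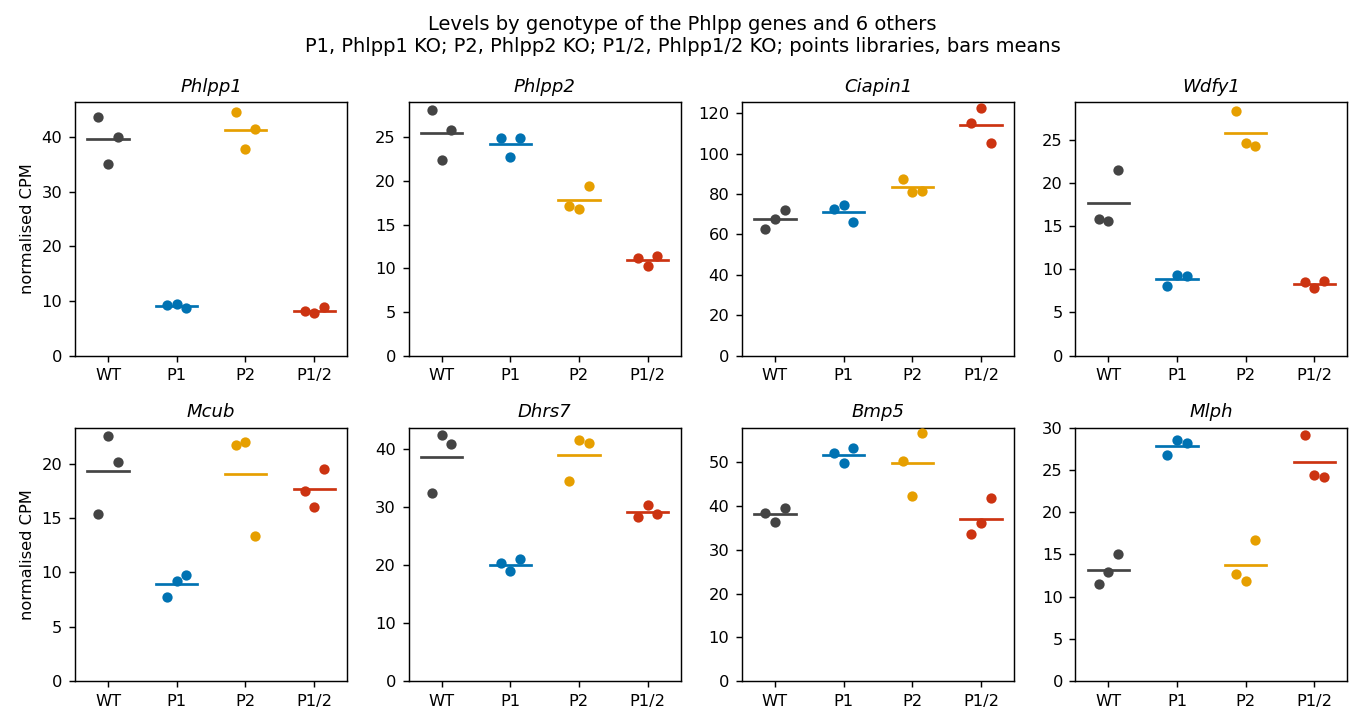
Normalised CPM of the Phlpp genes and 6 other genes by genotype, with 1 point for each library and a bar for the mean of 3. Mcub and Dhrs7 were lowest in Phlpp1 KO, Bmp5 was high in both single knockouts, Ciapin1 was highest in Phlpp1/2 KO, and Mlph had the same 2 levels with and without Phlpp2.

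For Phlpp2 loss the same reading gave fewer genes. Phlpp2 KO against WT called 20 genes (0.121%), of which 12 had the same sign in Phlpp1/2 KO against Phlpp1 KO (60.0%; 44.0% of all tested genes). That second comparison called 2 genes (0.0121%), Phlpp2 and Ciapin1. With near-identical copies summed, Phlpp2 KO against WT called 0 genes in edgeR, with 2120 at an unadjusted p under 0.05. Lypd3, a cell-surface protein of epithelia, was at 8.79 to 10.8 CPM in WT, 4.62 to 5.62 in Phlpp1 KO, 1.41 to 3.34 in Phlpp2 KO and 2.11 to 4.38 in Phlpp1/2 KO. Its single losses came to -0.94 and -1.98 and the double loss to -1.49, so the interaction was 1.43 (SE 0.40, adjusted p = 0.152). Sox11, a transcription factor of progenitor cells, had differences of 0.34, 0.68 and 0.79 from WT, with an interaction of -0.22 (95% interval -0.57 to 0.13).

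Immediate early genes, which follow growth factor signalling, lay on both sides of the sum, from -0.82 to 0.44. Egr1 was at 52.0 to 61.0 CPM in WT, 68.7 to 92.1 in Phlpp1 KO, 67.8 to 79.3 in Phlpp2 KO and 81.6 to 113 in Phlpp1/2 KO. The log2 differences of the single losses, 0.52 and 0.43, added up to 0.95 against 0.83 for the double loss (interaction -0.12, 95% interval -0.52 to 0.28). Fos had a sum of 0.79 and a double loss of 0.57 (interaction -0.22, 95% interval -0.52 to 0.09), and Arc a sum of 1.00 and a double loss of 0.74 (interaction -0.27, 95% interval -0.84 to 0.30). Over the 29 tested members of the list, 15 lay above 0 and 14 below, with 3 at an unadjusted p under 0.05. With the GC trend removed 8 of 29 lay above, with a median of -0.09, and without both libraries of low Xist 12, also with -0.09. Fosb differed from these, at 2.71 to 3.01 CPM in Phlpp2 KO, 3.39 to 3.85 in WT, 4.37 to 4.73 in Phlpp1 KO and 4.25 to 5.28 in Phlpp1/2 KO (interaction 0.44, SE 0.18, adjusted p = 0.281).

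Among protein-coding genes below the sum, after Rnps1, the smallest p was that of Bmp5, a bone morphogenetic protein expressed around forming cartilage. It was at 38.4, 36.4 and 39.6 CPM in WT, 52.1, 49.8 and 53.3 in Phlpp1 KO, 50.4, 42.4 and 56.8 in Phlpp2 KO, and 33.6, 36.1 and 41.9 in Phlpp1/2 KO. All 6 libraries of single knockouts were above the 6 others, and the double loss was back at the level of WT (log2 difference -0.04). The interaction was -0.86 (SE 0.14) with an adjusted p of 0.0667, and -0.98 with an adjusted p of 0.00413 when Phlpp1/2 KO 3 was left out (0.0819 with the GC trend removed as well). With the trend on GC content removed it was -0.48.

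The receptors Bmpr1a and Bmpr2 of this family had interactions of -0.61 and -0.50 (adjusted p = 0.155 for both), and of -0.29 and -0.16 with the GC trend removed. Gas5, a host of small nucleolar RNAs, was at 182 to 188 CPM in WT, 224 to 234 in Phlpp1 KO, 221 to 256 in Phlpp2 KO and 198 to 212 in Phlpp1/2 KO (interaction -0.48, SE 0.09, adjusted p = 0.132). Efcab7, a protein of the ciliary base that acts in hedgehog signalling, was at 2.83 to 4.57 CPM in WT and 5.32 to 7.68 in the 9 mutant libraries (interaction -1.21, SE 0.25, adjusted p = 0.151). Bmt2, Phkb, Ska2, Strn3, Ube3a and Txlng, also among the genes below the sum with the smallest p once pseudogenes and predicted genes are set aside, had interactions of -0.48 to -0.85. Their transcripts have a GC content of 36.3% to 43.3%, where the median of all tested genes is 49.8%, and Txlng shares sequence with Gm8258 over 677 bases.

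A pattern in which all 6 single-knockout libraries lay above the 6 libraries of WT and Phlpp1/2 KO was seen for 35 genes (0.211%), and the reverse for 25 (0.151%). The 35 have a median GC content of 43.3% and the 25 of 54.3%. Among the 35 were Bmp5, Gas5, Bmt2, Phkb, Txlng and Adamts12, a matrix metalloprotease (2.82, 4.21, 4.21 and 3.20 mean CPM in WT, Phlpp1 KO, Phlpp2 KO and Phlpp1/2 KO). Among the 25 were Dnpep, an aspartyl aminopeptidase, and Ndufv1, a subunit of complex I (108, 101, 102 and 111 mean CPM).

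Above the sum, the protein-coding nuclear genes with the smallest p had interactions of 0.36 to 1.53, and none was called. Dnpep was at 36.1 to 37.8 CPM in WT, 29.8 to 31.9 in Phlpp1 KO, 30.2 to 31.9 in Phlpp2 KO and 32.3 to 34.8 in Phlpp1/2 KO (interaction 0.38, SE 0.08, adjusted p = 0.151). Both single losses gave one level, below the double loss. Pcp4l1, a small calmodulin-binding protein, was at 1.01 to 2.70 CPM in WT and the single knockouts and 2.36 to 3.64 in Phlpp1/2 KO (interaction 1.53, SE 0.37, adjusted p = 0.151). Ckb, the brain-type creatine kinase, was at 240 to 269 CPM in the single knockouts and 253 to 294 in WT against 287 to 326 in Phlpp1/2 KO (interaction 0.38, SE 0.09, adjusted p = 0.151), and it shares sequence with a pseudogene. Ulk1, the kinase that starts autophagy, was at 25.3 to 29.7 CPM in WT, 20.1 to 20.9 in Phlpp1 KO, 21.3 to 24.1 in Phlpp2 KO and 23.2 to 24.0 in Phlpp1/2 KO (interaction 0.42, SE 0.11, adjusted p = 0.151). The water channel gene Aqp1 and Urod, of haem synthesis, had 0.63 and 0.36.

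Lists of genes by function are described by counts, beside all tested genes, of which 9299 lay above 0 (56.1%). edgeR called 0 members of every list, and members at an unadjusted p under 0.05 are counted below. In the pathway of AKT, PI3K and mTOR, on which PHLPP acts, 15 of 30 genes lay above 0 with a median of 0.01, and 10 had an unadjusted p under 0.05, 7 of them below. With the GC trend removed, 2 had. The smallest p was that of Inpp4b, a phosphatase of PI(3,4)P2, at 3.57 to 4.80 CPM in WT, 5.22 to 7.65 in Phlpp1 KO, 5.35 to 5.98 in Phlpp2 KO and 4.22 to 6.03 in Phlpp1/2 KO (interaction -0.91, SE 0.25, adjusted p = 0.151). The kinase Sgk3 had -0.52 and the catalytic subunit Pik3ca -0.36, and with the GC trend removed they had -0.05 and -0.03. Inpp4b then had -0.45. Kinase substrates and partners of PHLPP had a median of 0.04 over 19 genes, 2 of them at an unadjusted p under 0.05, and the S6 kinase gene Rps6kb1 had -0.43, which turned to 0.019 with the trend on GC content removed. Usp1, a deubiquitinase of the same list, was at 88.9 to 100.2 CPM in WT and 95.3 to 136.5 in the mutants (interaction -0.51, SE 0.17, adjusted p = 0.176). FOXO targets, which AKT represses, had 20 of 27 above with a median of 0.14 and 3 at an unadjusted p under 0.05.

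Interferon-response genes lay mostly above the sum, 30 of 33 with a median of 0.44, and 8 had an unadjusted p under 0.05, 7 of them above. Their median difference from WT was -0.57 in Phlpp1 KO, -0.10 in Phlpp2 KO and -0.26 in Phlpp1/2 KO. Irf9, the DNA-binding part of the interferon-stimulated complex, was at 15.8 to 18.5 CPM in WT, 11.04 to 11.7 in Phlpp1 KO, 13.1 to 17.1 in Phlpp2 KO and 12.4 to 14.5 in Phlpp1/2 KO (interaction 0.53, SE 0.16, adjusted p = 0.155). Xaf1, an interferon-induced promoter of apoptosis, had 0.91 (adjusted p = 0.232) and Ifi35 0.55 (adjusted p = 0.212), while Ifit2, which binds foreign RNA, was 1 of 3 members below, at -0.79 (adjusted p = 0.151). The summed level of the list ran from 233 to 276 CPM in WT, 179 to 217 in Phlpp1 KO, 216 to 300.3 in Phlpp2 KO and 215 to 254 in Phlpp1/2 KO. The median was 0.44 with the GC trend removed and 0.41 without both libraries of low Xist, with 30 of 33 and 28 of the tested members above.

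Genes of antigen presentation and inflammation lay on the same side in the fit of all libraries. For MHC genes 16 of 20 were above with a median of 0.29 and 4 at an unadjusted p under 0.05, with H2-Ab1 at 0.50 (adjusted p = 0.244) and H2-K1 at 0.27 (adjusted p = 0.277). For inflammatory genes 24 of 30 were above with a median of 0.21 and 2 at an unadjusted p under 0.05. Myd88, the adaptor of Toll-like receptors, was at 0.39 (adjusted p = 0.152). Ptgs2, which makes prostaglandins, went against them at -1.02 (adjusted p = 0.212). The lean of the inflammatory list was smaller without Phlpp1/2 KO 3, where 17 of 30 were above with a median of 0.045. Without both libraries of low Xist 20 were above, with 0.12, and with the GC trend removed 22, with 0.17. Markers of macrophages and osteoclasts had 10 of 16 above with a median of 0.32 and 2 at an unadjusted p under 0.05, and together they came to 171 to 191 CPM in WT, 169 to 181 in Phlpp1 KO, 171 to 196 in Phlpp2 KO and 189 to 201 in Phlpp1/2 KO. Of the 21 markers, Ctsk, a protease of osteoclasts, made up most of that sum at 98.5 to 125 CPM. Cd14 was at 18.1 to 36.3 CPM, Lyz2 at 9.59 to 25.5, Cd68 at 5.11 to 9.72, Ptprc at 0.181 to 0.679 and Aif1 at 0.0673 or less. Their part in the immune lists was not tested. In bulk RNA, fewer cells of a type and less RNA per cell cannot be told apart.

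Metabolic lists leaned above the sum by small amounts. Glycolysis and hypoxia had 36 of 39 above with a median of 0.21 and 5 at an unadjusted p under 0.05, among them Aldoa at 0.24 and Ldha at 0.27. Cytosolic ribosomal proteins had 42 of 46 above with a median of 0.15 and 8 at an unadjusted p under 0.05, with Rpl24 at 0.28 and Rpl6 at 0.22 and with Rps2 among the 4 below. Oxidative phosphorylation had 30 of 34 above with a median of 0.07 and 2 at an unadjusted p under 0.05. With the GC trend removed these medians were 0.16, 0.09 and 0.08, and 1, 4 and 5 members had an unadjusted p under 0.05. Aldoa then had 0.11, Ldha 0.19, Rpl24 0.21 and Rpl6 0.15. In the clock list 19 of 24 were above, and 9 had an unadjusted p under 0.05, 6 above and 3 below. Dbp, an output gene, had 0.49 (adjusted p = 0.159), and Clock had -0.77. After removal of the GC trend 16 of 24 clock genes were above and 4 had an unadjusted p under 0.05. Dbp then had 0.34 and Clock -0.43.

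Lists of matrix and division had smaller shares above. Collagens and other fibrous matrix genes had 8 of 35 above with a median of -0.17 and 2 at an unadjusted p under 0.05, and Ogn, the small proteoglycan osteoglycin, had -1.34 (adjusted p = 0.174). Cartilage matrix genes had 10 of 23 above with a median of -0.08 and with 2 at an unadjusted p under 0.05. Without Phlpp1/2 KO 3 15 of 23 were above, and without both libraries of low Xist 17 of 23, with a median of 0.05. With the GC trend removed 6 of 23 were above, with a median of -0.19 and 0 at an unadjusted p under 0.05. Hapln1, which links aggrecan to hyaluronan, was at 1017 to 1171 CPM in WT, 1024 to 1398 in Phlpp1 KO, 1103 to 1677 in Phlpp2 KO and 935 to 1025 in Phlpp1/2 KO (interaction -0.64, SE 0.20, adjusted p = 0.175). Its interaction was -0.21 with the GC trend removed. Col10a1, the collagen of hypertrophic chondrocytes, had -1.003 (SE 0.39, adjusted p = 0.262), with libraries of 1 genotype as far apart as 559 and 1194 CPM in Phlpp2 KO. Cell cycle genes had 12 of 38 above with a median of -0.04 and 7 at an unadjusted p under 0.05, 6 of them below. Without Phlpp1/2 KO 3 18 were above, and without both libraries of low Xist 19, with a median of 0.002. With the GC trend removed 11 were above, with a median of -0.08. Cenpe and Cenpf, proteins of the kinetochore, were at 18.7 to 23.7 CPM in WT and 27.8 to 69.7 in the 9 mutant libraries, with interactions of -1.32 and -1.36 (SE 0.34 and 0.36, adjusted p = 0.151 and 0.152).

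Marker lists of other cell types were not called either. Skeletal muscle markers had 14 of 14 above with a median of 1.26, and 0 at an unadjusted p under 0.05. Summed, they were at 31.9, 136.5 and 27.3 CPM in WT, 13.9, 49.4 and 65.0 in Phlpp1 KO, 16.6, 22.9 and 9.81 in Phlpp2 KO and 23.03, 19.5 and 36.6 in Phlpp1/2 KO, so libraries of 1 genotype differed by as much as the genotypes. Keratinocyte markers had 8 of 8 above with a median of 0.40 and 1 at an unadjusted p under 0.05. Their sum was 70.6 to 81.7 CPM in WT, above all 9 mutant libraries at 54.0 to 67.0. Of the 12 markers, Perp made up most of it, at 46.5 to 57.4 CPM in WT and 33.5 to 44.4 in the mutants. Krt5 was at 0.177 to 0.764 CPM and Krt14 at 0.101 or less. Endothelial and mural markers had 4 of 16 above with a median of -0.23 and 0 at an unadjusted p under 0.05, and 0 of the 14 markers of blood cells passed the filter.

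**Figure D4:**
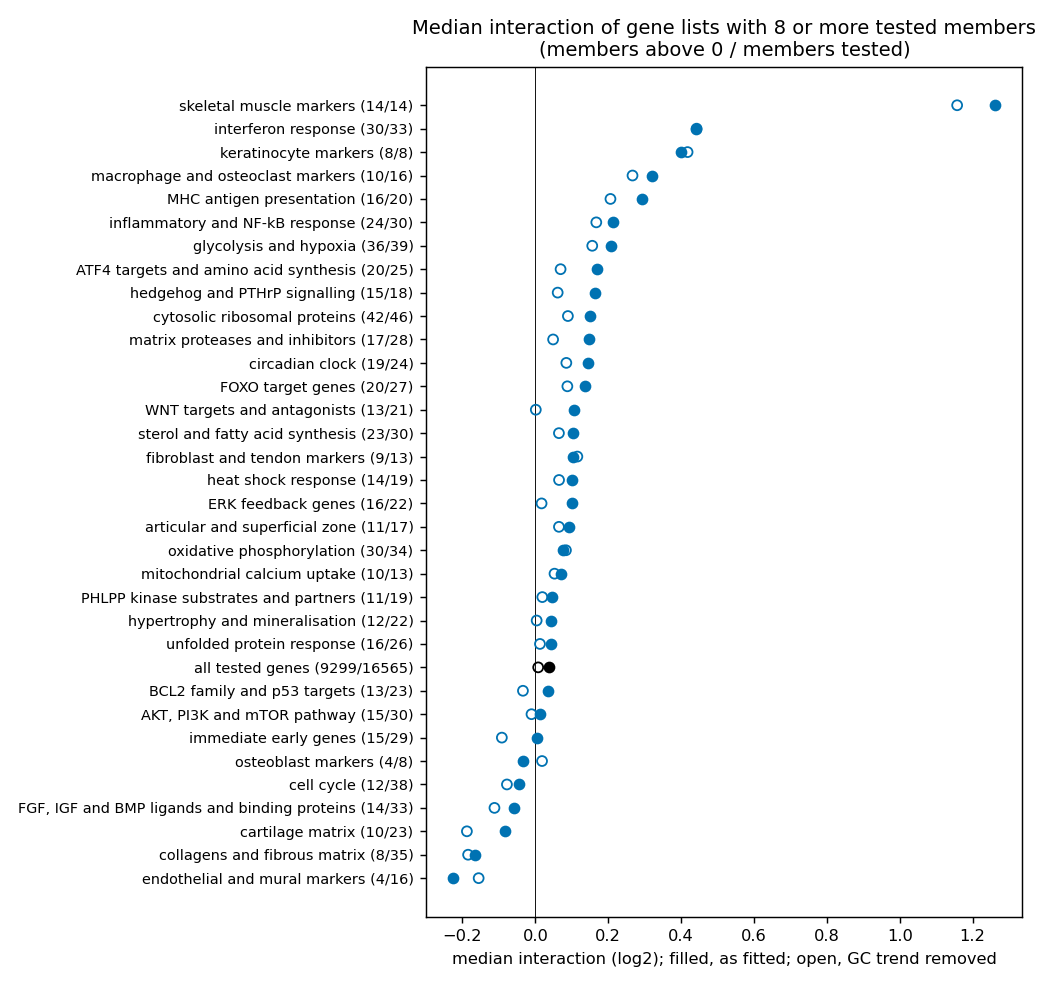
Median interaction in log2 units of each gene list with 8 or more tested members, as fitted (filled) and with the trend on GC content removed (open), with the number of members above 0 and tested. Interferon-response genes lie at 0.44 in both, all tested genes at 0.04 and 0.01, and collagens and fibrous matrix at -0.17 and -0.18.

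The interaction followed the GC content of transcripts. In the decile with the lowest GC content the median interaction was -0.44, and 808 of 1651 genes lay below 0 with an unadjusted p under 0.05, against 6 above. In the highest decile the median was 0.14, with 159 above and 8 below. Both single knockouts had low-GC transcripts higher than WT, with medians of 0.26 and 0.28 in the lowest decile, while Phlpp1/2 KO had 0.10. Spearman's rho between the interaction and GC content across 16518 genes, which are not independent, was 0.46.

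Libraries of a genotype were not alike in this respect. The rho between GC content and a library's deviation from the mean of all libraries was 0.22 to 0.35 in WT, -0.30 to -0.05 in Phlpp1 KO and -0.27 to -0.04 in Phlpp2 KO. In Phlpp1/2 KO it was 0.31 and 0.28 in samples 1 and 2 but -0.31 in sample 3. Without Phlpp1/2 KO 3, edgeR called 1196 genes (7.11%), 34 above the sum and 1162 below, and the 1162 have a median GC content of 40.9%. Without Phlpp2 KO 2 it called 71, 6 above and 65 below. Among the 1162 were Bmp5, Bmpr1a, Bmpr2, Inpp4b, Sgk3, Pik3ca, Rps6kb1, Clock and Cenpe. With Phlpp1/2 KO 3 left out and the GC trend removed as well, 8 genes were called, 3 of the 1162 still among them, and the median of the 1162 went from -0.75 to -0.34. In that fit 711 of the 1162 (61.2%) had an unadjusted p under 0.05, against 2001 of all 16828 tested genes. The 1162 were chosen in the same libraries, so their share is a description. The 8 were Rps2-ps10, Gm9825, mt-Nd3, Rps2 (-0.69, adjusted p = 0.0360), Rnps1 (-0.50, adjusted p = 0.0360), Snx7 (0.76), Cr1l (0.61) and Rab5a (-0.63). Snx7, Cr1l and Rab5a were named after their values were seen.

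**Figure D5:**
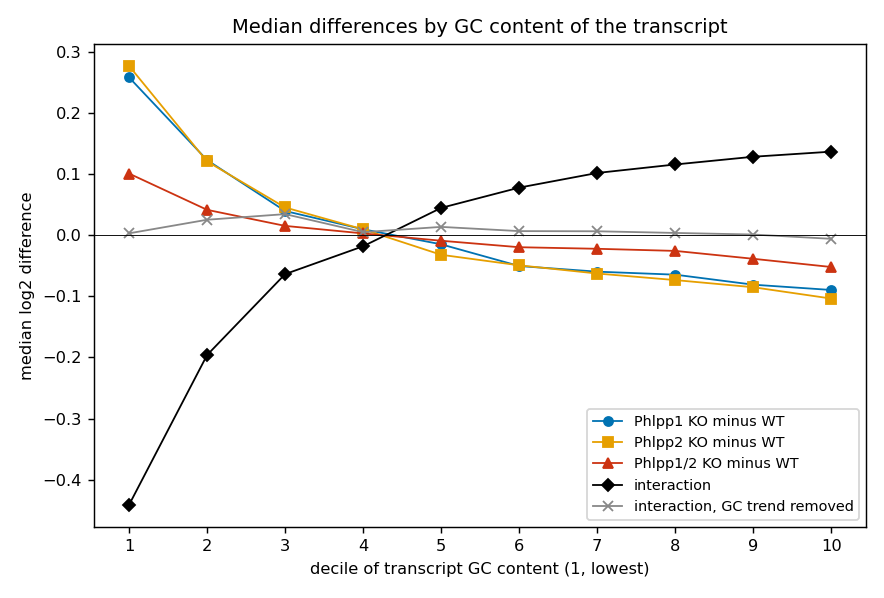
Median log2 difference from WT of each knockout, and median interaction, by decile of transcript GC content from lowest to highest. The interaction runs from -0.44 in decile 1 to 0.14 in decile 10, and stays between -0.01 and 0.03 once the trend of each library on GC content is removed.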

How the data were processed

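RNA of 12 chondrocyte libraries was sequenced, 3 in each of 4 genotypes. The authors deposited raw read counts per gene, made with bcl2fastq 2.17, STAR 2.5.2b and featureCounts of Subread 1.5.2 on mm10, per the submitters' processing notes. The sources used here give neither the annotation release nor the strand setting, so reads of overlapping genes on opposite strands may not be told apart. Totals of 21706337 to 33115345 counts make 1 count worth 0.0295 to 0.0453 CPM.

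From these counts edgeR 4.0.16 (R 4.3.3) fitted the 4 groups together after filterByExpr and TMM scaling, with robust quasi-likelihood dispersions and 8 residual degrees of freedom. The interaction and the pairwise comparisons were tested 2-sided with Benjamini-Hochberg adjustment over all 16565 genes, and called means an adjusted p under 0.05. Of 49315 genes, 32750 were removed as low. Genes without a symbol (174) held 0.00419% of counts. Alternatives used limma 3.58.1 and DESeq2 1.42.0, other scalings and filters, a replicate block and left-out libraries. Removal of each library's GC trend (lowess span 0.3 on GENCODE vM21 transcripts, 16518 genes), its combination with a left-out library, and the summing of near-identical copies (at least 95% identity over 150 bases and 80% of the shorter transcript) were chosen after seeing the data. The fit was tested on simulated data.

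The genes described were those named by earlier results of these data, up to 15 called genes in each direction, filled to 10 by smallest p, and up to 3 members of each list with the smallest p, at 1 CPM or more. Predicted genes and pseudogenes were skipped except where called. Members and lists were chosen with earlier results of these data known. Replicate numbers were not used to pair the samples in the main fit, and the closing section gives results with them as a block.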

Additional observations from a re-analysis of the deposited data

Results flagged for a closer look

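The effect of Phlpp2 loss differed between the backgrounds with and without Phlpp1 for 8 genes, by the interaction term itself. The interaction was 4.91 for Rps2-ps10, 3.13 for Gm9825, 3.93 for mt-Nd3, 2.57 for Gm6139 and 1.23 for Rps2-ps13, and -2.78 for Gm28438, -1.73 for Gm10222 and -0.93 for Gm28437. In each of them WT stood apart from the 3 mutant genotypes, and each has a near-identical copy. WT stood apart in 32.6% of all tested genes, and the share of these with a copy is not given here. With copies summed, edgeR called 0 interactions, with 2268 at an unadjusted p under 0.05.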

How the results depend on the processing

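The 8 interaction calls were 7 with relative log expression or upper quartile scaling, 7 with limma-voom, 8 at a mean of 1 CPM or more or without robust estimation and 7 with the GC trend removed, where Gm28438 (adjusted p = 0.358), Gm28437 (0.495) and Rps2-ps13 (0.077) were not called and Rps2 (0.0123) and Rnps1 (0.0140) were. They were 183 without a filter, 640 with DESeq2 (36 above and 604 below, of median GC content 54.2% and 40.5%), 0 with protein-coding nuclear genes only (2159 at an unadjusted p under 0.05), 4 without both low-Xist libraries and 0 with near-identical copies summed. Leaving out 1 library gave 5 to 1196, the highest without Phlpp1/2 KO 3. For Phlpp1 KO against WT (89) the values were 461 without a filter, 988 with DESeq2, 18 without low-Xist libraries, 45 with copies summed and 16 to 647 with 1 library left out. For Phlpp1/2 KO against Phlpp2 KO (12) they were 32, 39 and 3 without a filter, with DESeq2 and without low-Xist libraries, and 4 to 132. For Phlpp2 KO against WT (20) they were 110 without a filter, 13 with limma-voom, 317 with DESeq2, 2 with protein-coding nuclear genes, 13 with the GC trend and Phlpp1/2 KO 3 removed, 0 with copies summed (2120 at an unadjusted p under 0.05) and 9 to 159. For Phlpp1/2 KO against Phlpp1 KO (2) they were 14 without a filter, 20 with DESeq2 and 2 to 4. Beyond tests on other genes or samples, the cause was not tested.

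With the replicate number as a block, the interaction called 308 genes, Phlpp1 KO against WT 245 and Phlpp2 KO against WT 84. Same-numbered libraries correlated at -0.16 to 0.30, over 0.1 in 4 of 18 pairs, and 5 of 12 libraries correlated best with their own number. Whether same-numbered samples share more than a number was not tested. Signs turned for Gm28438 with copies summed (0.16), for Rps6kb1 with the GC trend removed (0.019) and also without Phlpp1/2 KO 3 (0.032), and with 1 library left out for Egr1 (-0.24 to 0.0030) and Efhd1 (-0.49 to 0.10). Depth limits Efhd1, at 0.331 to 1.61 CPM. No scaling moved the median of all genes by over 0.1.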
